A study of Mus musculus with 4 samples.

Results

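The tumour necrosis factor (TNF) superfamily of ligands and the matching superfamily of receptors were examined in TS1 and in TS2, 2 lines of mouse cells labelled as derived from CD4+ T lymphocytes. Members were the genes with a single-gene probe set whose symbol starts with Tnfsf or Tnfrsf and a number, together with Fas, Fasl, Cd27, Cd40, Cd40lg, Cd70, Lta, Ltb and Ltbr. This rule gave 38 of the 19938 genes measured, 14 of them ligands and 24 receptors, each read by 1 probe set. Both lines grew untreated in Iscove-Dulbecco's medium with murine interleukin-9, and RNA of duplicates A and B of each line was hybridised to 1 Affymetrix mouse gene array each. Each group is thus a single line read by 2 arrays, so n = 2 throughout, and the duplicates are called biological without a statement of how separate their cultures were. The p-values measure the spread between these arrays. With 2 arrays a line, the two-sided exact permutation p cannot fall below 0.333, so single genes were tested with limma, which shares variance across genes.

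TNF superfamily ligands are trimeric proteins, most of them anchored in the membrane, and their receptors carry cysteine-rich repeats outside the cell. Receptors with a death domain can recruit adaptors that activate caspases, and most others, decoy receptors apart, bind TRAF adaptors that lead to NF-kappa-B and kinase cascades. In T cells several receptors of the second kind, such as OX40, 4-1BB, GITR and CD27, act as co-stimulators after activation, and the ligands are shown to them by antigen-presenting cells or by T cells themselves.

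Values are log2 intensities, in which 1 unit is a doubling, and differences are TS2 minus TS1. The median over all 35556 probe sets was 6.48 and 6.53 for TS1 (A, B) and 6.47 and 6.49 for TS2. It serves below only as a mark for dim probe sets, since probe sets differ in how strongly they bind and no detection calls were used. A call needed an adjusted p (Benjamini-Hochberg) under 0.05 over all 19938 genes, which 13.5% of all genes reached, 5.05% higher in TS2 and 8.45% higher in TS1. Of the 38 members, 8 were called (21.1%): 6 had higher values in TS2, and 2 in TS1. TS1 and TS2 arrays stayed apart for 18 members (47.4%), against 58.4% of all genes. The median difference was 0.061 over the members and 0.013 over all genes. Of the members, 19 lay below the array median on all 4 arrays and 13 above it on all 4. In bulk RNA, fewer expressing cells and less RNA per cell cannot be told apart.

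**Figure D1:**
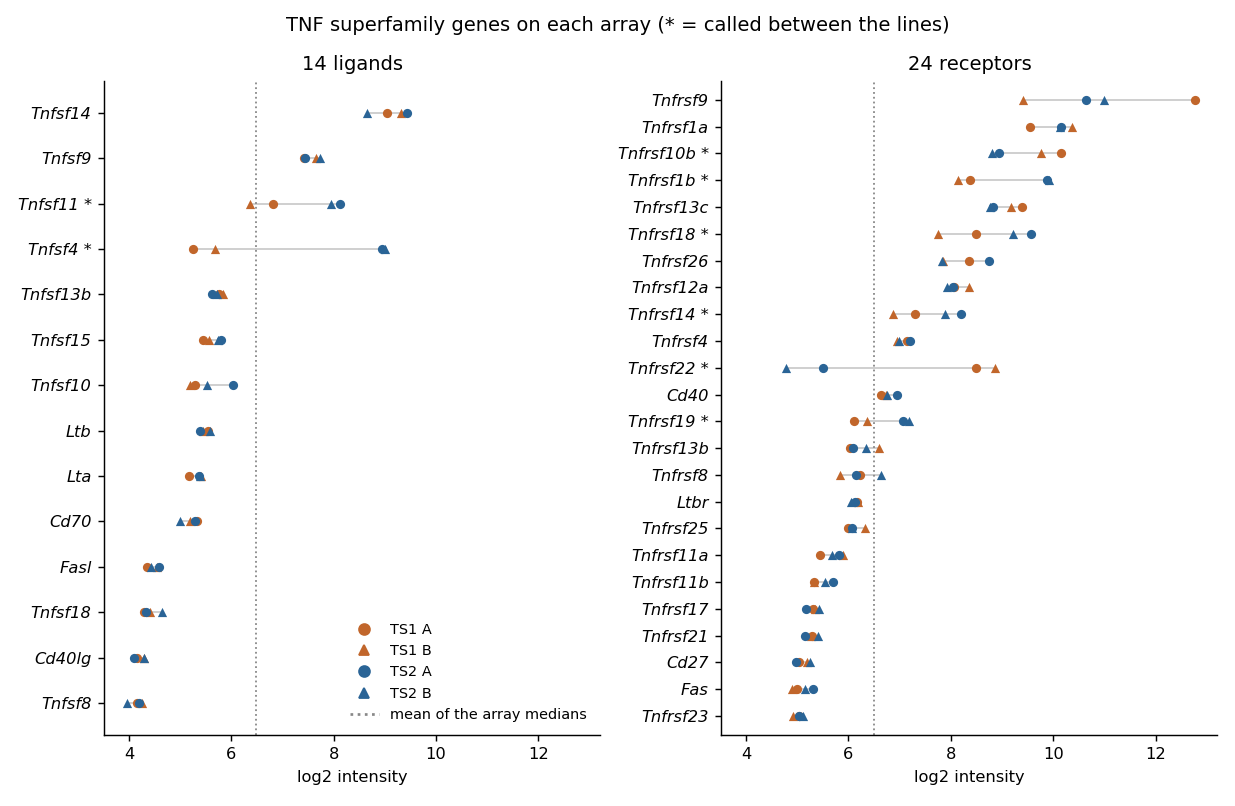
Log2 intensity of each of the 14 ligands and 24 receptors on every array (brown TS1, blue TS2, circles duplicate A, triangles duplicate B), ordered by mean, with the mean of the array medians as a dotted line and called genes starred. Tnfsf4 and Tnfrsf22 lie on both sides of the line by cell line, and Tnfrsf9 has its 2 TS1 points at 12.77 and 9.41.

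The labelled cell type was only partly seen in marker genes, and hardly in TS1. Of 10 measured T cell markers, Cd3e, Cd247 and Ptprc were called higher in TS2 and lay below the array median on both TS1 arrays. Another 6 of the 10, Cd4 among them, stayed below the array median on all arrays. In TS1 the only T cell marker above the median was thus Cd3g on TS1 A, and on TS1 B all 10 lay below it. Whether the contrast is one between 2 lines of T cells was not tested. Summed on the linear scale, the 10 came to 1965 and 548 in TS1 (A, B) and to 11299 and 12901 in TS2. Such sums are set by the brightest probe sets and do not measure all 10 markers alike. On TS1 A most of the sum was Cd3g (10.52, against 6.07 on TS1 B), and in TS2 most was Cd3e, Cd3g and Ptprc. All 4 B cell markers and all 6 myeloid markers stayed below the median. Of 8 mast cell markers, which summed to 977 and 862 in TS1, 1241 on TS2 A and 10667 on TS2 B, 1 was called, Kit, higher in TS1. Mcpt1, Mcpt2, Mcpt4 and Mcpt8 were uncalled but higher on both TS2 arrays, with differences from 2.96 (Mcpt4) to 5.20 (Mcpt1). Besides Kit, Cpa3 and Hdc had lower means in TS2 (differences -0.64 and -0.079). No member lay 2-fold or more apart between TS2 A and TS2 B, against 0.617% of all genes. At that rate so small a set as the members would usually lack such a gene, so nothing is read from this. Of 4 natural killer cell markers 1 was called higher in each line, Ncr1 in TS2 (difference 1.42) and Eomes in TS1 (difference -2.88). Klrd1 and Klrb1c were not called (differences 1.46 and 0.016). Their sums ran from 540 to 728 in TS1, mostly from Eomes, and from 189 to 276 in TS2. Of 4 dendritic cell markers, 3 lay below the median (sums 189 to 210 over the arrays). Of 4 fibroblast markers Pdgfra was higher in TS1 (sums 334 and 452 in TS1, 289 and 299 in TS2), as was Klf1, the 1 erythroid marker measured. The part of these markers in the results was not tested.

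Ligands were mostly dim. Of the 14, 10 stayed below the array median on every array, and the other 4 were Tnfsf4, Tnfsf11, Tnfsf9 and Tnfsf14. Both called ligands (14.3%, against 13.5% of all genes), Tnfsf4 and Tnfsf11, were higher in TS2.

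Tnfsf4 encodes OX40 ligand, which co-stimulates T cells through OX40. Its log2 intensity was 5.25 on TS1 A and 5.69 on TS1 B, against 8.95 on TS2 A and 8.99 on TS2 B. Both TS1 arrays were below the array median and both TS2 arrays well above it. The difference of 3.50 (SE 0.16, limma adjusted p = 0.000718) was the largest excess in TS2 among the members. Since the TS1 arrays lie where dim probe sets do, no fold is given.

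Tnfsf11 encodes RANK ligand, the cytokine that drives osteoclast formation and is made by activated T cells. It read 6.82 and 6.37 on TS1 A and B, and 8.13 and 7.95 on TS2 A and B. The lines did not overlap, although TS1 lay near the array median. The difference was 1.44 (SE 0.17, limma adjusted p = 0.0102), or 2.71-fold, and the call was lost without TS2 A (adjusted p = 0.0564).

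Both ligands that were bright in each line gave no call. Tnfsf14 encodes LIGHT, which binds the herpesvirus entry mediator and the lymphotoxin beta receptor. It read 9.05 and 9.32 in TS1 and 9.42 and 8.65 in TS2, with overlapping arrays (difference -0.15, 95% interval -0.85 to 0.55). Tnfsf9, the ligand of 4-1BB, read 7.43 and 7.65 in TS1 and 7.43 and 7.73 in TS2 (difference 0.043, interval -0.33 to 0.41).

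The largest uncalled excess in TS2 among all members was that of Tnfsf10, which encodes TRAIL, a ligand that can induce apoptosis. It read 5.28 and 5.19 in TS1 and 6.03 and 5.52 in TS2, all below the array median but without overlap (difference 0.54, SE 0.18, limma adjusted p = 0.130). Tnfsf15, or TL1A, read 5.44 and 5.57 in TS1 and 5.80 and 5.74 in TS2 (adjusted p = 0.151). Fasl, Cd40lg, Cd70, Lta, Ltb, Tnfsf8, Tnfsf13b and Tnfsf18 ran from 3.96 to 5.84 over all arrays, and none of their differences exceeded 0.13 in size. For these the arrays cannot show whether either line makes the transcript. Tnfsf12 and Tnfsf13 share a probe set that also names a read-through gene, so they were no members, and it read 5.79 and 5.53 in TS1 and 5.53 and 5.48 in TS2.

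Receptors held 6 of the 8 calls, and 11 of the 24 stayed above the array median on all arrays. Tnfrsf1b, Tnfrsf18, Tnfrsf14 and Tnfrsf19 were higher in TS2, and Tnfrsf22 and Tnfrsf10b were higher in TS1.

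Tnfrsf1b encodes TNF receptor 2, a receptor without a death domain that is found on lymphocytes. It read 8.37 and 8.15 on TS1 A and B, and 9.88 and 9.92 on TS2 A and B. Duplicates lay within 0.22 of each other in both lines, far closer than the lines. TS2 was higher by 1.64 (SE 0.11, limma adjusted p = 0.00187), or 3.13-fold.

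Tnfrsf18 encodes GITR, a co-stimulatory receptor well known from regulatory T cells. The TS1 arrays read 8.49 and 7.75, and the TS2 arrays 9.57 and 9.22. TS1 A stood 0.74 above TS1 B, and all TS2 arrays were above both. The difference was 1.28 (SE 0.27, limma adjusted p = 0.0437). Dropping TS1 B (adjusted p = 0.0717), TS2 A (0.183) or TS2 B (0.106) ended its call.

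Tnfrsf14, the herpesvirus entry mediator, read 7.30 and 6.87 in TS1 and 8.20 and 7.88 in TS2, without overlap. The difference was 0.96 (SE 0.19, limma adjusted p = 0.0371), and it was lost as a call without TS1 B (adjusted p = 0.0939), TS2 A (adjusted p = 0.160) or TS2 B (adjusted p = 0.0797). Tnfrsf19, or TROY, a receptor best known from the nervous system and hair follicle, read 6.11 and 6.37 in TS1 and 7.07 and 7.18 in TS2. It passed from just below the array median in TS1 to just above it in TS2 (difference 0.89, SE 0.12, limma adjusted p = 0.0146), which no longer passed when TS2 A (adjusted p = 0.0643) or TS2 B (0.0824) was dropped.

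Tnfrsf22 encodes one of the mouse decoy receptors for TRAIL, which bind the ligand without passing on a death signal. Its log2 intensity was 8.48 on TS1 A and 8.87 on TS1 B, against 5.50 on TS2 A and 4.78 on TS2 B. It was bright in TS1 and below the array median in TS2. The difference was -3.54 (SE 0.27, limma adjusted p = 0.00277), and no fold is given because the TS2 arrays lie where dim probe sets do.

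Tnfrsf10b encodes the mouse death receptor for TRAIL. It read 10.15 and 9.76 in TS1 and 8.95 and 8.81 in TS2, bright in both lines and without overlap. TS1 was higher by 2.11-fold (difference -1.07, SE 0.16, limma adjusted p = 0.0165), which no longer passed when TS2 A (adjusted p = 0.0673) or TS2 B (0.0867) was dropped. Both receptors higher in TS1 bind the same ligand, Tnfsf10.

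**Figure D2:**
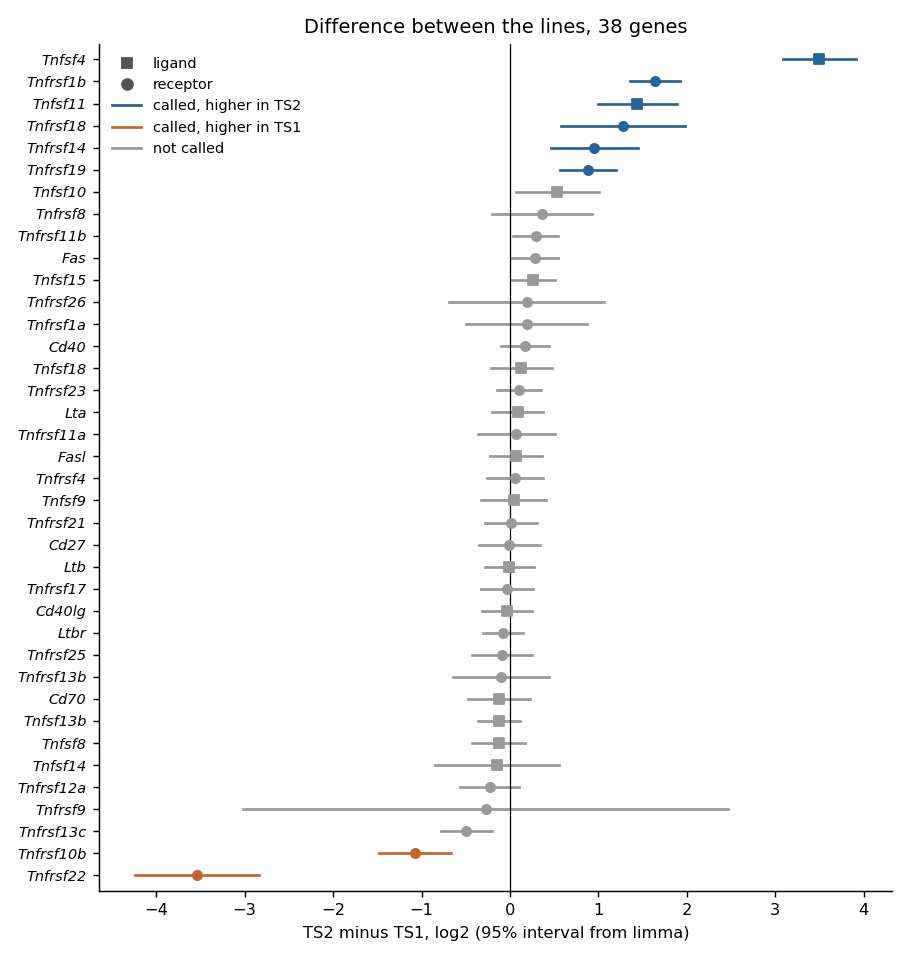
Difference between the lines (TS2 minus TS1, log2) of the 38 genes with the 95% interval from limma, squares for ligands and circles for receptors, blue and brown for genes called higher in TS2 and in TS1, grey for the rest. The ends are Tnfsf4 at 3.50 and Tnfrsf22 at -3.54, and the interval of Tnfrsf9 runs from -3.02 to 2.47.

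Of the uncalled receptors, Tnfrsf13c came closest to the threshold. It encodes the receptor of the B cell survival factor BAFF and read 9.39 and 9.17 in TS1 and 8.81 and 8.76 in TS2, without overlap (difference -0.49, SE 0.11, limma adjusted p = 0.0510). Tnfrsf1a, TNF receptor 1, which carries a death domain, was bright on all arrays, at 9.55 and 10.36 in TS1 and 10.15 and 10.14 in TS2. Its TS1 duplicates enclosed both TS2 arrays (difference 0.19, 95% interval -0.50 to 0.88). Tnfrsf12a, the receptor of TWEAK, read 8.07 and 8.36 in TS1 and 8.04 and 7.93 in TS2 (difference -0.23, interval -0.56 to 0.10). Tnfrsf26 read 8.36 and 7.85 in TS1 and 8.75 and 7.84 in TS2, so that the duplicates of each line lay further apart than the line means.

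The co-stimulatory receptor OX40, Tnfrsf4, read 7.14 and 6.94 in TS1 and 7.21 and 6.99 in TS2. The lines overlapped (difference 0.058, 95% interval -0.26 to 0.38). Cd40, a receptor best known on antigen-presenting cells, ran from 6.64 to 6.94 over the arrays. The death receptor Fas was dim, at 4.99 and 4.90 in TS1 and 5.31 and 5.15 in TS2 (difference 0.28, limma adjusted p = 0.146). Tnfrsf11a (RANK) and Tnfrsf11b (osteoprotegerin, a soluble decoy receptor) ran from 5.33 to 5.90. Cd27, Tnfrsf17, Tnfrsf21, Tnfrsf23, Tnfrsf25 and Ltbr stayed below the array median on all arrays, and Tnfrsf8 (CD30) and Tnfrsf13b each exceeded it on 1 array.

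All 8 called genes were among the 17 members brighter on average than the mean array median, where 22.9% of all genes so bright were called. Among the 21 dimmer members 0 were called by limma, against 3.56% of all genes so dim. An unadjusted limma p under 0.05, a looser threshold not to be set against that share, was reached by 4 of them. Over all 19938 genes, bright and dim, 5862 reached it. Nothing is read from these counts, because a member bright in 1 line enters the brighter group through the line in which it is high. The calls of Tnfsf4, Tnfrsf1b and Tnfrsf22 held whichever array was left out. The number of called members was 9 or 7 when TS1 A or TS1 B was dropped, and 3 or 4 when TS2 A or TS2 B was.

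The receptor with the brightest mean, Tnfrsf9, encodes 4-1BB (CD137), a co-stimulator induced by T cell activation, and its TS1 duplicates did not resemble each other. It read 12.77 on TS1 A and 9.41 on TS1 B, against 10.64 on TS2 A and 10.99 on TS2 B. TS1 A was thus the highest and TS1 B the lowest of the 4 arrays, with both TS2 arrays between them. The gap of 3.36 between the TS1 duplicates was the third largest of all 19938 genes, after Cd3g and Far2, both singled out once their values had been seen. The gap between the TS2 duplicates was 0.35. With all arrays limma made no call (difference -0.27, SE 1.07, adjusted p = 0.908). Without TS1 A, Tnfrsf9 was called higher in TS2 (difference 1.41, adjusted p = 0.0246), and without TS1 B it was called higher in TS1 (difference -1.95, adjusted p = 0.0146). Its direction therefore turned with the array left out.

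Among the members Tnfrsf9 was alone in a gap of 2-fold or more between the TS1 duplicates, which 1.11% of all genes had. The next were Tnfrsf1a, with TS1 B higher by 0.81, and Tnfrsf18, with TS1 A higher by 0.74. Cd3g, a CD3 chain that signals for the T cell receptor, read 10.52 on TS1 A and 6.07 on TS1 B. TS1 A exceeded TS1 B for 40 of the 69 signalling genes described below, against 44.2% of all genes. By list, TS1 A was higher for 9 of 12 NF-kappa-B genes, 7 of 9 genes in the list of death-domain adaptors and caspases, and 8 of 16 TNF target genes. The other lists had 7 of 14 ubiquitin regulators, 4 of 7 JNK and p38 kinases and 3 of 5 proteases so. TRAF adaptors had 2 of 6, and family genes outside the symbol rule 4 of 6. Nfkbia, the inhibitor I-kappa-B alpha, named after its values were seen, was at 8.21 on TS1 A and 6.87 on TS1 B. The part of these differences in the value of Tnfrsf9 was not tested.

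**Figure D3:**
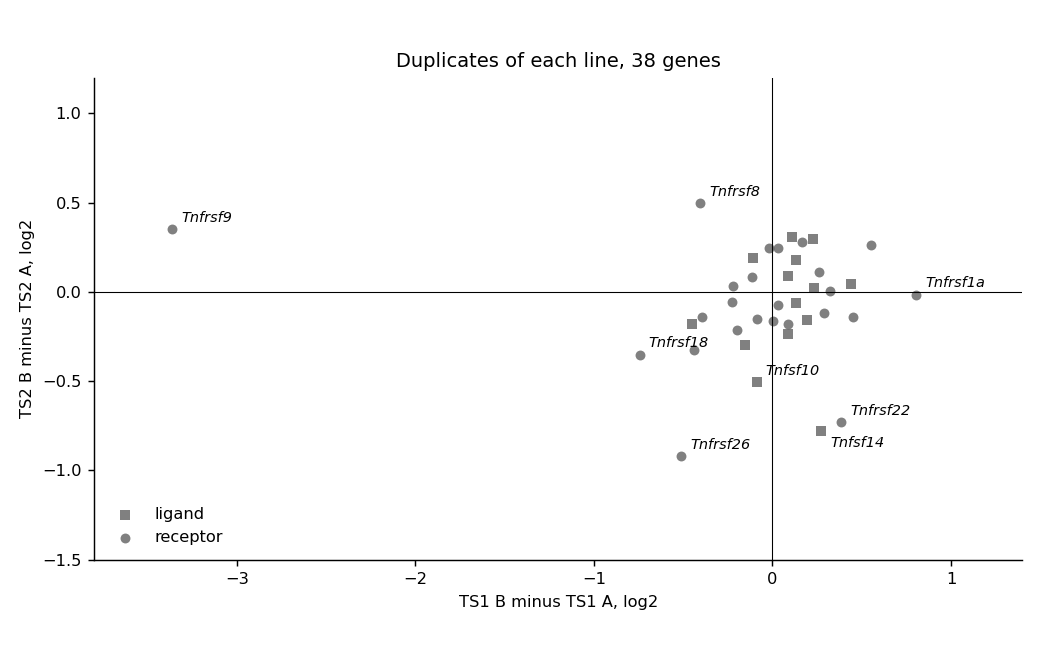
Duplicate B minus duplicate A on the log2 scale for each of the 38 genes, TS1 on the horizontal and TS2 on the vertical axis, drawn to the same scale. Tnfrsf9 lies at -3.36 in TS1 and 0.35 in TS2, and all other genes lie within 1 of 0 on both axes.

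Promoter sequence is shown for 5 receptors on which these results turn: Tnfrsf9, and each of the called genes Tnfrsf1b and Tnfrsf18 with its neighbour on the chromosome, which was not called. The 250 bases before the annotated start are given 5′ to 3′ on the gene's strand, from RefSeq on GRCm38.p6, with matches to a kappa-B consensus or to the AP-1 motif TGANTCA (N is any base) in capitals. Both strands were searched.
Tnfrsf9 (chr4:150927749-150927998, plus strand): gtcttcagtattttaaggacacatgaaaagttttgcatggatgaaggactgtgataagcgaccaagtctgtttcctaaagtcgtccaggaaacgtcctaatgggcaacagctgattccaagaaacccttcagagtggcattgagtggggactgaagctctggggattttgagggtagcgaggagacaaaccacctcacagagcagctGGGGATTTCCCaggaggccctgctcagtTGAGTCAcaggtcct
Tnfrsf1b (chr4:145246871-145247120, minus strand): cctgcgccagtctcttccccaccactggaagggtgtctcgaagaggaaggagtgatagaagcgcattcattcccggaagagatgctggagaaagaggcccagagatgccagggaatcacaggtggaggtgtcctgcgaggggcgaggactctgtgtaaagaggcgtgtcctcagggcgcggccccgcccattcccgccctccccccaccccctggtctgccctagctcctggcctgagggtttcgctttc
Tnfrsf8 (chr4:145315165-145315414, minus strand): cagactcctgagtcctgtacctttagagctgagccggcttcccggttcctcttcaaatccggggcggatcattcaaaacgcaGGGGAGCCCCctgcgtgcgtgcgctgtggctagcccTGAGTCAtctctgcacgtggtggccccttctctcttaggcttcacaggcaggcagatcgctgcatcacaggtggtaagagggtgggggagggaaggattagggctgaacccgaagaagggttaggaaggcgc
Tnfrsf18 (chr4:156026072-156026321, plus strand): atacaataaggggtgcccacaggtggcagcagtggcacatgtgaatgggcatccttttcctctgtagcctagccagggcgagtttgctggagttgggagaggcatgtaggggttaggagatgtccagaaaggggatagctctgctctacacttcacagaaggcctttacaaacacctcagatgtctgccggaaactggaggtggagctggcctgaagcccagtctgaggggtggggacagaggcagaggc
Tnfrsf4 (chr4:156013445-156013694, plus strand): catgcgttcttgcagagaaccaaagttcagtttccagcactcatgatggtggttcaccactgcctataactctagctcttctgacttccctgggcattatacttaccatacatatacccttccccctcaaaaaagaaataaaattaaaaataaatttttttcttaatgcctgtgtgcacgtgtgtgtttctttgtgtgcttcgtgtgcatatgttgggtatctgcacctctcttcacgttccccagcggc

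The Tnfrsf9 window, the second of 2 starts listed for that gene, held 2 overlapping kappa-B matches whose first bases lay 43 and 42 bases before the start, and an AP-1 match beginning 15 bases before it. The other Tnfrsf9 window held neither. Tnfrsf8 held a kappa-B match at 168 and an AP-1 match at 132 bases before its start. No such letters occur in the windows printed for Tnfrsf1b, Tnfrsf18 and Tnfrsf4, which says nothing about the factors. Of the 38 members, 29 had a window. A kappa-B match was present in 3 of their 33 windows and an AP-1 match in 5, against 3.92% and 6.73% of 32536 distinct windows of this length. Both motifs in 1 window were found in 0.212% of all windows. A match describes the sequence and is no evidence of binding.

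Ligands and receptors were next set side by side. Of 24 textbook pairs, 21 had both genes measured. In 8 of these pairs 1 gene was called, the ligand in 3 and the receptor in 5, and in 13 pairs neither was. Limma called both genes in 0 pairs, with 3 pairs having both genes at an unadjusted p under 0.05. Pairs share genes, and with 13.5% of all genes called a pair of calls would be rare among any genes, so nothing is read from these counts.

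On each array, OX40 ligand and its receptor gave different pictures of the lines. Tnfsf4 rose from 5.25 and 5.69 in TS1 to 8.95 and 8.99 in TS2, while Tnfrsf4 stayed between 6.94 and 7.21. RANK ligand was higher in TS2 by 1.44, while its receptor Tnfrsf11a differed by 0.074 (95% interval -0.36 to 0.51) and its decoy Tnfrsf11b by 0.29 (limma adjusted p = 0.132). Both Tnfrsf11a and Tnfrsf11b stayed below the array median on all arrays, so their small differences cannot show that the lines are alike.

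GITR showed the reverse arrangement, with a called receptor and a dim ligand. Tnfrsf18 was higher in TS2 by 1.28, and Tnfsf18 read 4.30 and 4.41 in TS1 and 4.33 and 4.64 in TS2. Likewise Tnfrsf14 was higher in TS2 by 0.96 and its ligand Tnfsf14, bright on all arrays, was not called. Lta, which encodes lymphotoxin alpha and binds both TNF receptors, read 5.18 and 5.41 in TS1 and 5.37 and 5.39 in TS2, next to a difference of 1.64 in Tnfrsf1b.

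The TRAIL pairs were the only measured pairs in which a called receptor was higher in TS1. Tnfsf10 had a difference of 0.54 that did not pass, the death receptor Tnfrsf10b one of -1.07 and the decoy Tnfrsf22 one of -3.54. Tnfrsf23, another decoy of this ligand and a close relative of Tnfrsf22, read 5.04 and 4.92 in TS1 and 5.04 and 5.12 in TS2 (difference 0.10, 95% interval -0.15 to 0.35). The pair are close relatives, and whether their probe sets share signal was not tested.

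**Figure D4:**
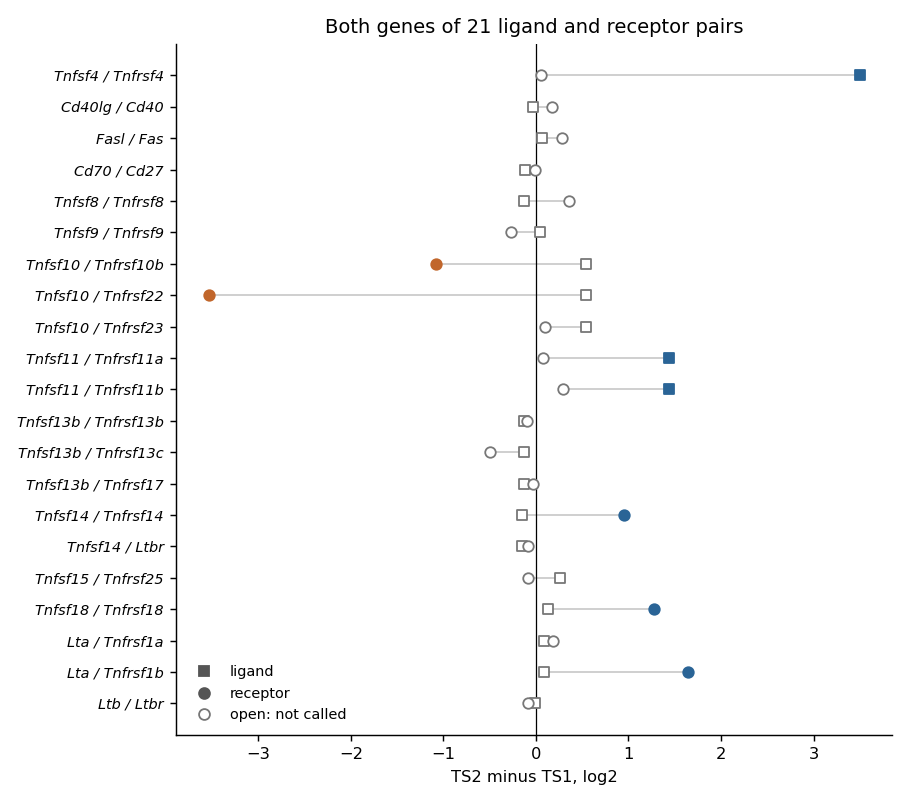
Difference between the lines (TS2 minus TS1, log2) of the ligand (square) and the receptor (circle) of each of 21 measured pairs, joined by a line, filled blue or brown where called higher in TS2 or TS1 and open where not called. No pair has 2 filled symbols, and the widest spans are Tnfsf10 with Tnfrsf22 (0.54 and -3.54) and Tnfsf4 with Tnfrsf4 (3.50 and 0.058).

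Many genes of these families lie side by side in the genome. With at most 3 protein-coding genes between them in RefSeq, and with Tnf added to the members, 13 neighbouring pairs were measured. In 5 of them 1 gene was called and in 8 neither. Tnfsf4 lies next to Tnfsf18, at differences of 3.50 and 0.13. Tnfrsf1b lies next to Tnfrsf8, at 1.64 and 0.36 (limma adjusted p = 0.357 for Tnfrsf8). Tnfrsf18 lies next to Tnfrsf4, at 1.28 and 0.058. Tnfrsf22 lies between Tnfrsf26 and Tnfrsf23, at -3.54 against 0.19 and 0.10. The difference between neighbours was not itself tested.

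The signalling genes downstream of the receptors were examined in 8 lists, with 69 of 76 listed genes measured. Limma called 14 of them (20.3%, against 13.5% of all genes), 9 with higher values in TS2 and 5 in TS1. Most listed genes were bright: 11 of the 69, and 0 of the 9 in the death-domain list, lay below the array median on all arrays. Of all genes brighter on average than the mean array median, 22.9% were called, so 20.3% is not read as an excess. The list of death-domain adaptors and caspases had the largest share of calls, 5 of 9 measured genes (55.6%), all of them for TS2, against 5 of 14 (35.7%) in the list of ubiquitin regulators. The called genes were Ripk3, Mlkl, Bid, Cflar and Casp8, and none of them is a death-domain adaptor. The median difference of the list was 0.42, against 0.013 over all genes.

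Ripk3, the kinase that triggers necroptosis, read 5.92 and 5.996 in TS1 and 9.54 and 10.35 in TS2. It was dim in TS1 and bright in TS2, a difference of 3.99 (SE 0.27, limma adjusted p = 0.00197). Mlkl, the membrane-rupturing protein that this kinase phosphorylates, read 7.55 and 7.43 in TS1 and 8.87 and 8.77 in TS2 (difference 1.33, SE 0.097, adjusted p = 0.00238). Both calls held whichever array was left out.

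The 3 other calls of that list were smaller. Bid, which links caspase-8 to mitochondria, was higher in TS2 by 0.80 (limma adjusted p = 0.0368). Cflar, the caspase-8 inhibitor c-FLIP, was higher by 0.60 (adjusted p = 0.0248) and Casp8 by 0.42 (adjusted p = 0.0419). Bid and Cflar lost their calls without TS1 B, TS2 A or TS2 B, with adjusted p from 0.0663 to 0.170, and Casp8 lost its call with any 1 of the 4 arrays dropped, at adjusted p from 0.0814 to 0.210. The adaptors Tradd, Fadd and Cradd were not called, at differences of 0.29, 0.20 and 0.38.

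Ubiquitin regulators of TNF receptor signalling moved in both directions, with 3 of 14 higher in TS2 and 2 higher in TS1. Cyld, a deubiquitinase, was higher in TS2 by 1.01 (limma adjusted p = 0.0166), Xiap, a caspase inhibitor, by 0.75 (adjusted p = 0.0111) and Birc3, the ubiquitin ligase cIAP2, by 0.58 (adjusted p = 0.0378). Tab3, an adaptor of the kinase TAK1, differed by -0.61 (adjusted p = 0.0283) and Sharpin, of the linear ubiquitin ligase, by -0.49 (adjusted p = 0.0259). The calls of Cyld and Xiap were lost without TS2 A or TS2 B (adjusted p from 0.0625 to 0.0879), and those of Birc3, Tab3 and Sharpin whichever array was left out.

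The lists of TRAF adaptors, NF-kappa-B genes and JNK and p38 kinases had 16.7%, 8.33% and 28.6% of their genes called. This compares with 13.5% of all genes and 22.9% of genes brighter on average than the mean array median. With 1, 1 and 2 called genes, nothing is read from these shares. Of 6 measured TRAF adaptors Traf4 was higher in TS1 (difference -0.83, limma adjusted p = 0.0411), a call lost whichever array was left out, and the rest were not called. Of 12 NF-kappa-B kinases and subunits, Map3k7, the kinase TAK1, was higher in TS1 (difference -0.64, adjusted p = 0.0339), lost without TS1 B, TS2 A or TS2 B. Of 7 JNK and p38 kinases, Map2k6, an activator of p38, differed by -1.61 (adjusted p = 0.00140), a call that held with any array left out, and Map3k5, the kinase ASK1, by 0.65 (adjusted p = 0.0215), lost without TS1 A, TS2 A or TS2 B.

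Of 16 genes usually induced by TNF, limma called 1 (6.25%, against 13.5% of all genes), Birc3. An unadjusted limma p under 0.05 was reached by 3 of the 16 and by 5862 of all 19938 genes. Nothing is read from such counts in this list or in the 2 smaller ones that follow. Vcam1, an adhesion molecule, read 4.55 and 4.88 in TS1, 4.83 on TS2 A and 7.98 on TS2 B, so that its difference of 1.69 rested on 1 array (adjusted p = 0.345). Among 5 proteases and partners that shed or process the ligands, 0 were called by limma and 2 had an unadjusted p under 0.05. Of 6 family genes outside the symbol rule it called 0, with 0 at an unadjusted p under 0.05. Tnf itself, named after its values were seen, read 5.48 and 5.38 in TS1 and 5.78 and 5.61 in TS2 (difference 0.27, adjusted p = 0.173), below the array median throughout.

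**Figure D5:**
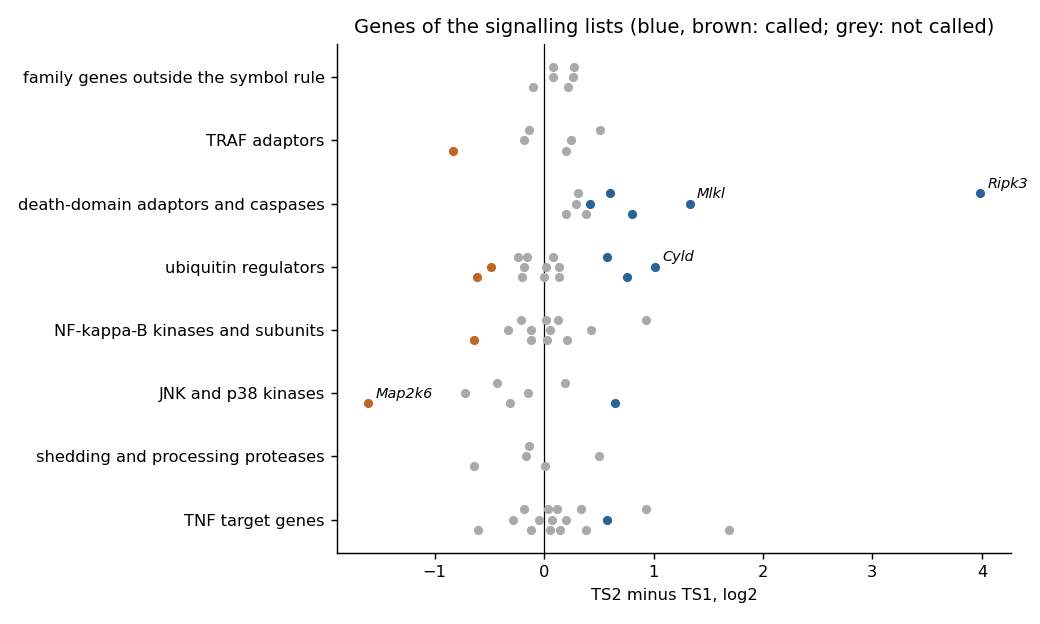
Difference between the lines (TS2 minus TS1, log2) of each measured gene of the 8 signalling lists, 1 point per gene, blue or brown where called higher in TS2 or TS1 and grey where not called, spread vertically only to part the points. Ripk3 at 3.99 and Mlkl at 1.33 lie at the right of the death-domain list, and Map2k6 at -1.61 at the left of the kinases. The uncalled point at 1.69 is Vcam1.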

How the data were processed

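Total RNA of TS1 and TS2 (duplicates A and B of each) was measured on Affymetrix arrays. The authors deposited 1 linear intensity per probe set and array, made with Affymetrix Expression Console and RMA per the submitters' processing notes, with no version given in the sources used here. This method removes shifts shared by most genes. Of 35556 probe sets, 21789 name 1 gene in the platform annotation, and the brightest of each gene by mean stood for it. Log2 of the intensities was taken, with no pseudocount, since 0 values were missing or non-positive. The plan had assumed log2 values, and its tests were kept. Limma 3.58.1 (lmFit, eBayes; R 4.3.3) was fitted to 19938 genes with the line as factor (2 residual and 3.03 prior degrees of freedom). The fit was tested on simulated data. Members, pairs and lists were chosen with earlier results of these data known. Called members, their listed partners, the brightest 6 uncalled members, the largest uncalled difference in each direction and up to 4 called genes per list are named, and others after their values were seen. Where a list had 5 called genes, all are named. Listed genes without a single-gene probe set were not analysed here. Alternatives are given in the closing section. Depth does not apply to arrays, whose number limits the precision.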

Additional observations from a re-analysis of the deposited data

How the results depend on the processing

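The letters A and B do not pair the arrays by the labels, and B minus A correlated at -0.029 across genes between the lines. With the replicate letter as a block, all 8 member calls were kept, 1666 of 19938 genes were called against 2691, and list genes came to 5 higher in TS2 and 3 higher in TS1, against 9 and 5. Leaving out each array in turn gave 2 to 7 members higher in TS2 (6 with all arrays), 1 to 3 higher in TS1 (2 with all), 3 to 9 pairs with 1 called gene (8 with all), 2 to 11 list genes higher in TS2 and 1 to 3 higher in TS1. Over all genes, calls numbered 2198 when TS1 A was dropped, 1565 when TS1 B was, 979 when TS2 A was and 1035 when TS2 B was. Tnfrsf9 reversed from -0.27 to 1.41 without TS1 A and moved to -1.95 without TS1 B, where the lone TS1 array is assumed to vary like those of TS2. At an adjusted p under 0.01, 2 members were higher in TS2 and 1 in TS1, 3 pairs had 1 called gene, the lists held 2 calls for TS2 and 1 for TS1, and 807 genes were called in all. Without moderation of the variances limma's fit called 0 genes, so 0 members, 0 pairs and 0 list genes in either direction. With the dimmest 50% of probe sets left out, 17 members were tested and 2 pairs had 1 called gene, because fewer genes were tested. With the dimmest 30% or 50% left out, or a robust prior, 3 members were higher in TS1, Tnfrsf13c being added. Centring, renewed quantile normalization, an intensity trend, the mean of all probe sets and updated symbols left both member counts as they were. Of the alternatives for single genes, 654 stayed on their side of the threshold, 29 of them with a change of sign in 17 uncalled genes, 92 lost a call and 4 gained one. What limits these results is 2 arrays per line, and, for dim members, signal near background.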
